A study of Mus musculus with 52 samples.

Results

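The genes described here are 30 enzymes, regulators and transporters of cholesterol and fatty acid synthesis, measured by RNA sequencing in Cilia-APEX-IMCD3 cells. IMCD3 is an immortalised line from the inner medullary collecting duct of the mouse kidney, and the Cilia-APEX derivative expresses the peroxidase APEX in its cilia. Members were chosen by name from a fixed list of symbols, and all 30 were present among the 24421 symbols counted. The series holds 52 libraries, 4 each from 13 clone samples. In the non-ciliated state the control clones were AB_Co, BE_Co1, BE_Co2 and BE_Co3, and the homozygous mutant clones were BE_W34 and BE_W60. In the ciliated state the controls were conD8, conH12, conA4 and conG7, and the homozygous mutants were WDR341, WDR343 and WDR60. Every clone had been through CRISPR base editing, controls included, with a cytosine base editor that in the controls had no target in the genes of interest. The mutants carry missense changes in Wdr34 or Wdr60, the intermediate chains of the dynein-2 motor that returns cargo from the tip of the cilium. The labels name no allele, so WDR341 and WDR343 are told apart here only by clone name. By the study's own account, a Wdr34 clone that was sequenced only in the ciliated state also carries an unintended heterozygous missense change in Wdr34, and the Wdr60 clone a heterozygous synonymous change.

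Several features of the design limit what a difference between states or genotypes can show. Each clone grew from a single edited cell, and the labels do not say which ciliated clone corresponds to which non-ciliated one. They give a medium with 10% FBS for all samples, whereas the study's methods describe serum starvation to induce cilia. Ciliation, serum level and the time of sequencing differ between the states and cannot be told apart. No clone name occurs in both states, so a difference between sets of clones cannot be told from a state difference either. Where the same clone was sequenced in both states, its samples are not independent, and no pairing could be fitted. The 4 libraries of a clone are technical replicates, so their counts were summed and the clone was the unit of every test.

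Library totals ran from 14816218 to 28084979 counts with a median of 17414011.5, and clone sums from 64841603 to 77304019. Of 20 markers of collecting duct and tubule epithelium, 13 exceeded 1 CPM (counts scaled to the same library total, corrected by TMM where clone levels are given) in all 13 clones, but Aqp2, the vasopressin-regulated water channel that defines principal cells, had at most 1 count in any clone sum. Markers of adipocytes and hepatocytes, the other strongly lipogenic cells, summed to at most 0.139 CPM in any clone. A pair of control clones stood apart in epithelial identity. The epithelial adhesion genes Epcam and Cdh1 were at 13.4 and 14.4 CPM in conG7 and at 2.86 and 4.22 CPM in BE_Co2, against 183 to 836 and 243 to 648 CPM in the other 11 clones. Keratin Krt7 was at 3.65 CPM in conG7 and 3.76 CPM in BE_Co2, against 62.4 to 936 CPM elsewhere, with WDR343 the lowest of those 11. Many results on named members are therefore also given without conG7 or BE_Co2.

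Cholesterol is built from acetyl-CoA through the mevalonate steps to farnesyl units, which are joined to squalene, closed to lanosterol and trimmed to cholesterol. When sterols in the endoplasmic reticulum fall, the SREBP transcription factors are escorted to the Golgi, cleaved and sent to the nucleus, where they raise transcription of these enzymes and of their own retention factor Insig1. SREBP-2, encoded by Srebf2, acts mainly on cholesterol genes, and SREBP-1, encoded by Srebf1, mainly on fatty acid genes. Cultured cells also take up cholesterol and fatty acids from serum, and the kidney tubule is a polarised epithelium with large plasma membranes and a cilium whose membrane is rich in sterol.

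Per kilobase of exon, a scale that allows levels of different genes to be compared, Scd2 was the highest member, with a mean level of 451 CPM per kb in non-ciliated and 561 CPM per kb in ciliated control clones. Scd2 is a stearoyl-CoA desaturase, which introduces the double bond of oleic acid. Acss2, which makes acetyl-CoA from acetate, was the lowest, at 1.75 and 2.19 CPM per kb. Among cholesterol genes the HMG-CoA synthase Hmgcs1 stood at 134 and 226 CPM per kb, and Hsd17b7, a late ketoreductase, at 11.5 and 12.3 CPM per kb. The lowest count of any member in any library was 56, for Acss2 in BE_W34, so all 30 members passed the filter on low counts.

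**Figure D1:**
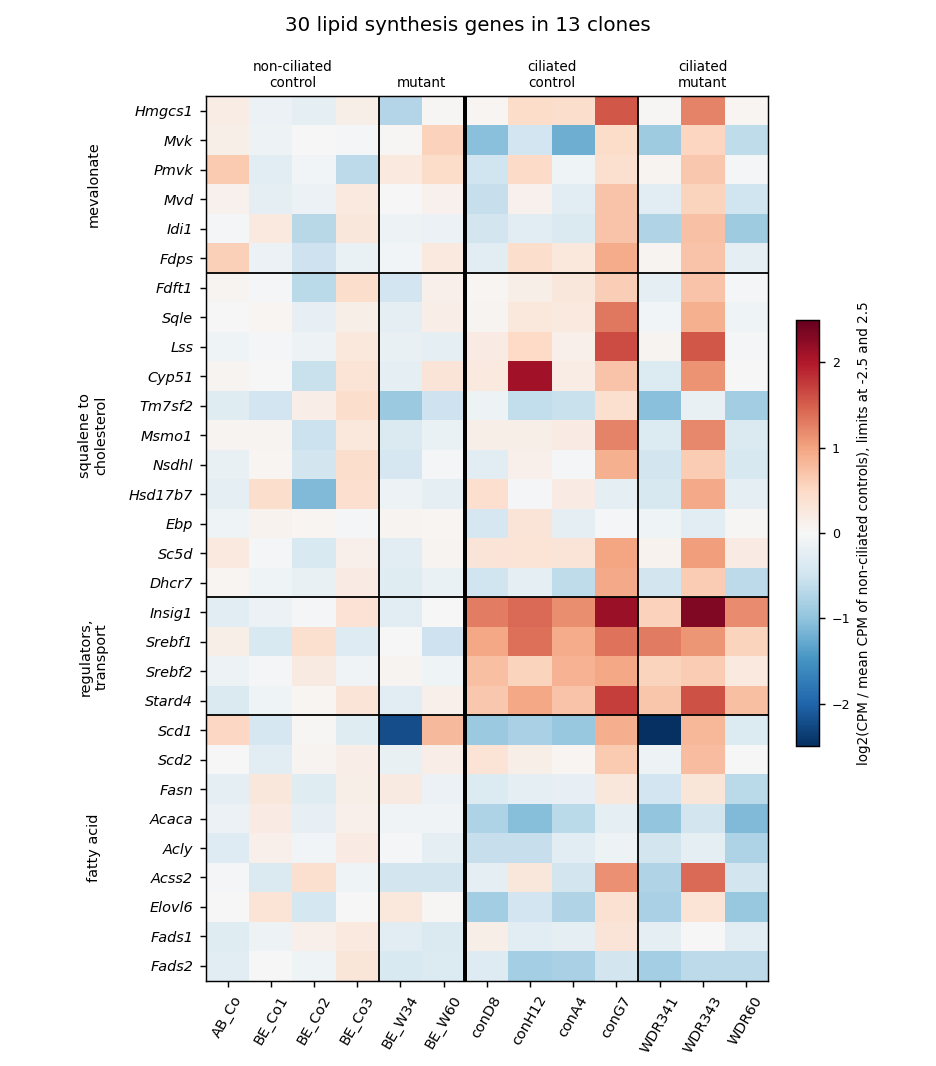
Level of each of the 30 genes (rows, grouped by role) in each of the 13 clones (columns), as log2 of the clone's mean CPM over the mean of the 4 non-ciliated control clones, with colours capped at both ends of the scale. The block of regulators and transport (Insig1, Srebf1, Srebf2 and Stard4) is red in all 7 ciliated clones. Of the 17 cholesterol enzymes, 15 lie above the mean of the non-ciliated controls in conG7 and 15 in WDR343, against 3 in WDR60, 5 in WDR341, 8 in conD8, 9 in conA4 and 12 in conH12.

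The first comparison asked how the pathway differed between ciliated and non-ciliated control clones. All 4 of Insig1, Srebf1, Srebf2 and Stard4 were higher in ciliated clones, with log2 fold changes from 0.79 to 1.56. This group of regulators and transport is called the 4 regulators below, although Stard4 is a cholesterol carrier. None of the 17 cholesterol enzymes passed the edgeR test, and 2 of 9 fatty acid genes, Acaca and Fads2, were lower. In all, 4 of 30 members were called higher and 2 lower at an adjusted p under 0.05 (edgeR quasi-likelihood test, Benjamini-Hochberg over 13994 genes), where 8.98% of all genes tested were called higher and 9.46% lower. The share of members called in either direction was thus close to the 18.4% of all genes called. The median log2 fold change was 0.21 over the members and 0.02 over all genes tested. The member median leaned on conG7. Without that clone the value turned negative for Mvd (-0.22), Nsdhl (-0.06), Dhcr7 (-0.46) and Acss2 (-0.12). It stayed positive for the 4 regulators, and also for Hmgcs1, Sqle, Lss, Cyp51 and Sc5d. Since these are bulk samples, a change in the share of cells that express a gene and a change in RNA per cell cannot be told apart.

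Insig1 encodes the endoplasmic reticulum protein that holds SREBP back while sterols are plentiful. It stood at 116 CPM in AB_Co, 125 in BE_Co1, 136 in BE_Co2 and 178 in BE_Co3, and at 338 in conD8, 371 in conH12, 310 in conA4 and 622 in conG7. Every ciliated control lay above every non-ciliated one, and conG7 was well above the other ciliated controls. The means were 410 ± 144 and 139 ± 27.7 CPM (SD, n = 4 clones each), and the log2 fold change by edgeR was 1.56 (SE 0.35, adjusted p = 0.0117). Without conG7 it was 1.27 with an adjusted p of 0.025, and without both conG7 and BE_Co2 it was 1.26 with an adjusted p of 0.037.

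Srebf1 had clone means of 148 CPM in AB_Co, 102 in BE_Co1, 175 in BE_Co2 and 107 in BE_Co3, against 259 in conD8, 347 in conH12, 252 in conA4 and 339 in conG7. The groups did not overlap, and here conG7 did not stand above conH12. The log2 fold change was 1.17 (SE 0.23, edgeR adjusted p = 0.00672), 1.09 without conG7 and 1.25 without conG7 and BE_Co2. Its counts could include reads of Rai1, which overlaps it on the genome, as the strand setting of the counting is not given in the sources used here. Srebf2 lay between 431 and 549 CPM in the non-ciliated controls, lowest in AB_Co and highest in BE_Co2. In ciliated controls it was at 792 CPM in conD8, 692 in conH12, 865 in conA4 and 927 in conG7, again without overlap. Its log2 fold change of 0.79 had the smallest SE of the regulators (0.14, edgeR adjusted p = 0.00425), and was 0.71 without conG7 and 0.79 without conG7 and BE_Co2.

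Stard4 encodes a soluble protein that carries cholesterol between membranes. Its levels were 60.6 CPM in AB_Co, 72.2 in BE_Co1, 80.7 in BE_Co2 and 97.6 in BE_Co3, and 124 in conD8, 152 in conH12, 127 in conA4 and 259 in conG7. The groups did not overlap, but conG7 lay far above the other ciliated controls. The log2 fold change was 1.08 (SE 0.28, edgeR adjusted p = 0.0218) and 0.76 without conG7 (adjusted p = 0.0461). The call was lost without AB_Co (0.97, adjusted p = 0.058), without BE_Co1 (1.04, adjusted p = 0.0687) and without conG7 and BE_Co2 together (0.78, adjusted p = 0.0566).

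On the fatty acid side, Acaca encodes acetyl-CoA carboxylase 1, which makes malonyl-CoA. It was at 69 CPM in AB_Co, 88.3 in BE_Co1, 66.4 in BE_Co2 and 83.3 in BE_Co3, and at 45.1 in conD8, 36.5 in conH12, 48.4 in conA4 and 65.5 in conG7. Ciliated controls were all lower, although conG7 came within about 1 CPM of BE_Co2. Acaca fell by 0.67 on the log2 scale (SE 0.19, edgeR adjusted p = 0.0319). The call was lost when any of BE_Co1, BE_Co3, conD8, conH12 or conA4 was left out, with adjusted p between 0.0645 and 0.0986. Without conG7 the log2 fold change was -0.85 (adjusted p = 0.0135), and -0.91 without conG7 and BE_Co2.

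Fads2, the delta-6 desaturase that opens the synthesis of long polyunsaturated fatty acids, ranged from 413 CPM in AB_Co to 607 in BE_Co3 among non-ciliated controls, with 500 in BE_Co1 and 460 in BE_Co2. It ranged from 273 CPM in conH12 to 396 in conD8 among ciliated controls, with 284 in conA4 and 359 in conG7. The groups were separate but close, with conD8 just below AB_Co. Fads2 fell by 0.60 on the log2 scale (SE 0.15, edgeR adjusted p = 0.0206), and the call was lost without BE_Co1, BE_Co3, conH12 or conA4 (adjusted p 0.0519 to 0.0624) and in a fit of the control clones alone (adjusted p = 0.0535). Without conG7 it was -0.66, and -0.70 without conG7 and BE_Co2. Its partner Fads1, the delta-5 desaturase, had a log2 fold change of -0.01 (SE 0.16).

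**Figure D2:**
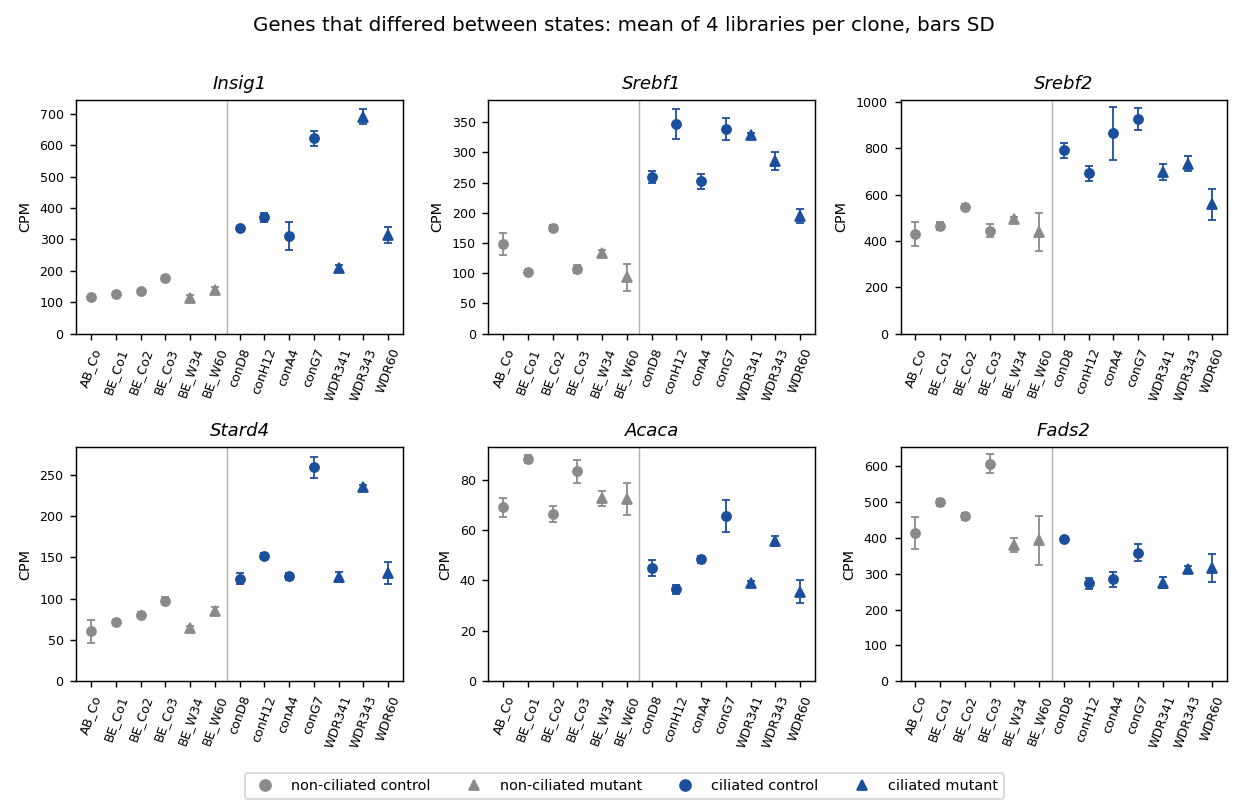
Mean CPM of 4 libraries with SD (bars) for the 6 genes that differed between ciliated and non-ciliated control clones, in all 13 clones. Circles are controls, triangles mutants, grey non-ciliated and blue ciliated. Insig1 and Stard4 are highest in conG7 and WDR343, while Srebf1 and Srebf2 show no such step.

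Clone means of 7 members did not overlap between the 4 ciliated and 4 non-ciliated controls. The 5 that were higher were the 4 regulators and Sc5d, a late sterol desaturase, where 10% of all genes were separated in this direction. Acaca and Fads2 were lower, against 11.3% of all genes. Across both genotypes, 7 ciliated against 6 non-ciliated clones, the 4 regulators remained wholly higher and Acaca wholly lower, where 6.9% and 8.04% of all genes were separated.

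The cholesterol enzymes themselves did not pass the test by edgeR or by DESeq2, whereas voomLmFit on libraries with the clone as a block called 5 of the 17 higher, Hmgcs1, Sqle, Lss, Cyp51 and Sc5d. That fit called 27% of all genes it tested, in either direction, and DESeq2 23.4%. Their values spread widely among ciliated clones. Over the 6 mevalonate genes the log2 fold changes ran from -0.40 for the mevalonate kinase Mvk to 0.73 for Hmgcs1 (SE 0.36, edgeR adjusted p = 0.171). The 11 genes from squalene to cholesterol ran from -0.14 to 1.03, and 9 of them were positive, beside 7225 of all 13994 genes tested. The upper end was the lanosterol demethylase Cyp51 (SE 0.45, adjusted p = 0.131), the only one of these 17 with an unadjusted p under 0.05, where 33.9% of all genes had one. Its value was 0.38 (SE 0.34, adjusted p = 0.49) without conH12, the clone with by far the highest Cyp51. Lanosterol synthase Lss was at 0.75 (SE 0.39, adjusted p = 0.2) and squalene epoxidase Sqle at 0.56 (SE 0.29, adjusted p = 0.207). Without conG7 the log2 fold change was 0.27 for Lss, 0.18 for Sqle, 0.31 for Hmgcs1 and 0.31 for Sc5d. It was then 1.12 for Cyp51, -0.46 for Dhcr7 and -0.89 for Mvk, which widened both ranges. Lss, Sqle and Hmgcs1 dropped further when conG7 and BE_Co2 were both left out, to 0.23, 0.11 and 0.24.

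The 7 remaining fatty acid genes were not called by edgeR or DESeq2, and voomLmFit called Acly lower. ATP citrate lyase Acly, which makes cytosolic acetyl-CoA from citrate, came nearest, at -0.38 on the log2 scale (SE 0.16, edgeR adjusted p = 0.129). The fatty acid synthase Fasn was at -0.13 (SE 0.23) and the elongase Elovl6 at -0.37 (SE 0.33). Scd2 was at 0.30 (SE 0.21). Scd1, its close relative, had the least certain value of all members, -0.23 with an SE of 0.79. Without conG7 and BE_Co2 the values were -0.51 for Acly, -0.37 for Fasn, -0.84 for Elovl6, 0.19 for Scd2 and -0.91 for Scd1, with adjusted p from 0.0751 to 0.61.

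**Figure D3:**
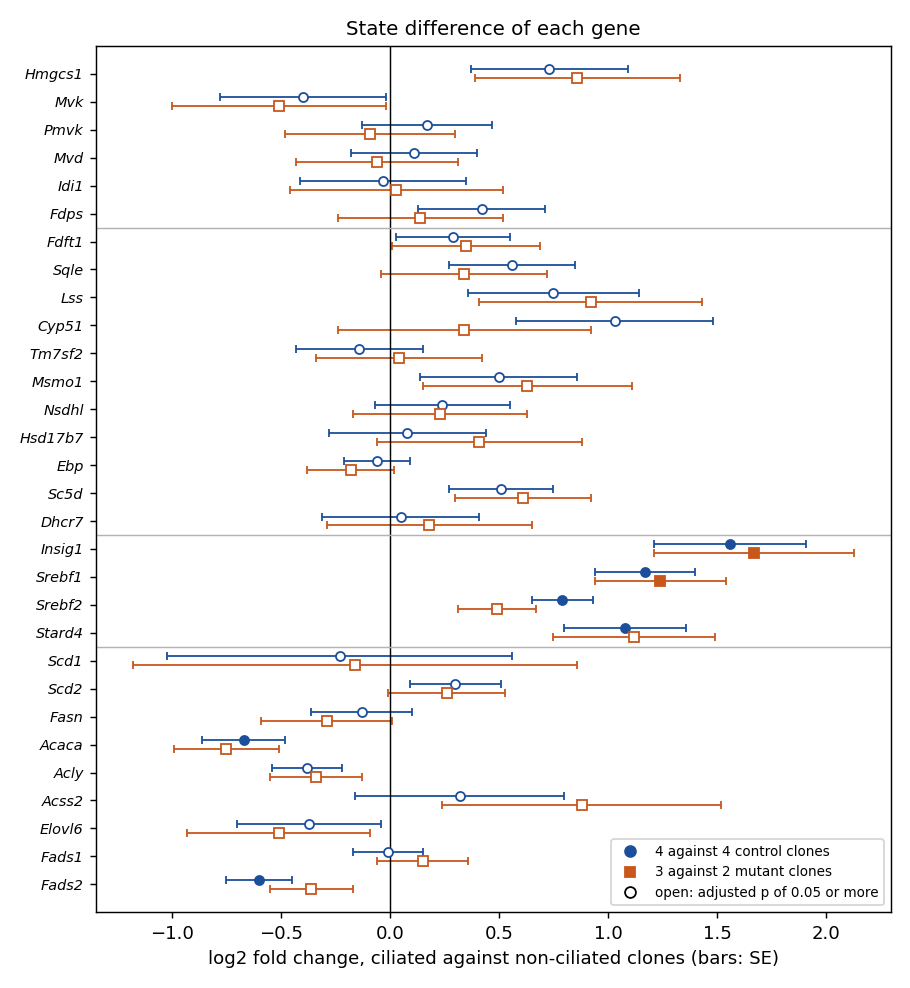
Log2 fold change of each gene between ciliated and non-ciliated clones, with SE (bars), in 4 against 4 control clones (blue circles) and 3 against 2 mutant clones (orange squares). Filled symbols have an adjusted p under 0.05. Insig1 and Srebf1 are filled in both genotypes, and Scd1 has the widest bars.

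The mutant clones were compared between states in the same way, and fewer members passed. Insig1 and Srebf1 were higher in the 3 ciliated mutants, 2 of 30 members by edgeR, and none was called lower by this test, where 5.32% of all genes were called higher and 7.53% lower. Insig1 was at 208 CPM in WDR341, 691 in WDR343 and 314 in WDR60, against 114 in BE_W34 and 139 in BE_W60. The range among ciliated mutants was wide, yet the lowest of them exceeded both non-ciliated mutants. Its log2 fold change was 1.67 (SE 0.46, edgeR adjusted p = 0.0381), and 1.04 with an adjusted p of 0.083 without WDR343. The Insig1 call was also lost without BE_W34, BE_W60, BE_Co1 or WDR60, with adjusted p between 0.0505 and 0.264.

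Srebf1 was at 328 CPM in WDR341, 286 in WDR343 and 195 in WDR60, and at 134 in BE_W34 and 93 in BE_W60. WDR60 was the lowest ciliated clone of either genotype. The log2 fold change was 1.24 (SE 0.30, edgeR adjusted p = 0.0235), with the call lost without BE_W34, BE_W60, WDR341 or WDR343 (adjusted p 0.0516 to 0.152). Stard4 had a log2 fold change of 1.12 (SE 0.37, adjusted p = 0.0647), Srebf2 of 0.49 (SE 0.18, adjusted p = 0.083) and Acaca of -0.75 (SE 0.24, adjusted p = 0.0627). None of these 3 passed the threshold in mutants by edgeR, whereas DESeq2 on the same clone sums called all 3, and voomLmFit on libraries with the clone as a block called Stard4 and Acaca as well as Hmgcs1 and Lss. Of all genes in this comparison DESeq2 called 20.1% and voomLmFit 21.7%, against 12.9% by edgeR. Clone means of 7 members were higher in all 3 ciliated mutants than in both non-ciliated ones, the 4 regulators with Lss, Sc5d and Fads1, where 26% of all genes were. Ebp, Acaca and Fads2 were lower in all 3, where 26.5% of all genes were.

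The difference of the state effect between mutants and controls was tested directly by an interaction term. No member was called, and neither was any of the 13994 genes, of which 136 (0.972%) had an unadjusted p under 0.05. DESeq2 and voomLmFit also called 0 genes. For Srebf2 the interaction was -0.30 (SE 0.22, edgeR adjusted p = 1). It was 0.24 (SE 0.25) for Fads2, -0.69 (SE 0.72) for Cyp51, 0.11 (SE 0.55) for Insig1 and 0.07 (SE 0.36) for Srebf1. With 1 clone left out, the value for Cyp51 ran from -1.25 without WDR343 to -0.04 without conH12, for Fads2 from 0.13 without BE_Co3 to 0.34 without conD8, and for Srebf2 from -0.39 without BE_W60 to -0.17 without WDR60.

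Promoter sequences of members were taken from the RefSeq table for GRCm38, which held 23 of the 30 members. They are shown for Insig1, Srebf2 and Srebf1, which were called higher in ciliated controls. They are also shown for Hmgcs1, a cholesterol enzyme with a sterol element, and for Fads2, a member that was lower. Each runs 5′ to 3′ over 220 bases that end just before the annotated start. Capitals mark matches on either strand to the sterol element core TCACNCCA, the E-box CACGTG, the CCAAT box and the GC box GGGCGG, and no matches to different motifs overlapped. For Srebf1, which has 3 entries, the start with the most matches is shown.
Insig1, chr5:28071192-28071411, plus strand: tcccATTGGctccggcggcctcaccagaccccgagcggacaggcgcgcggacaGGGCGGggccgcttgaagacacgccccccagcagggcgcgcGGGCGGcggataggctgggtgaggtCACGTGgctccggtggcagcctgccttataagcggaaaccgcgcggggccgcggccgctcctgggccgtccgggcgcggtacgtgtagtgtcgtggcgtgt
Srebf2, chr15:82147049-82147268, plus strand: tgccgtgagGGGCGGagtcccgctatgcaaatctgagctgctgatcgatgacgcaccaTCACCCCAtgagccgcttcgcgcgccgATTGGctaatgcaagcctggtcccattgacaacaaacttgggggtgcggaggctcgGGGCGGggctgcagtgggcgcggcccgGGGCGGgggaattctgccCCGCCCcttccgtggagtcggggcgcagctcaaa
Srebf1, chr11:60210472-60210691, minus strand: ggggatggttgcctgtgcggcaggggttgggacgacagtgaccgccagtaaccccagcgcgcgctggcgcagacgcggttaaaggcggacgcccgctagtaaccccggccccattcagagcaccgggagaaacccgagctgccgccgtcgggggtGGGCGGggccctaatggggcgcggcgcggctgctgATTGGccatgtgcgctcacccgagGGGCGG
Hmgcs1, chr13:119690131-119690350, plus strand: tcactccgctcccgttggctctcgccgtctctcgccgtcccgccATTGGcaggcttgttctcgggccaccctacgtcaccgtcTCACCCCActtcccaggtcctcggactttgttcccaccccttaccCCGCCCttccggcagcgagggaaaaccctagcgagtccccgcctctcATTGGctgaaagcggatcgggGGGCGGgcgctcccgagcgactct
Fads2, chr19:10101504-10101723, minus strand: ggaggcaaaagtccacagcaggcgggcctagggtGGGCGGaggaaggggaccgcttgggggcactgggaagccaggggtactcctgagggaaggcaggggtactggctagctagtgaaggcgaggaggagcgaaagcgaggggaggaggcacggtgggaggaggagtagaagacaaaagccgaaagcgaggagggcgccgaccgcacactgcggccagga

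In the full promoter entries, which run past the start, TCACNCCA occurred in those of Hmgcs1, Srebf2 and Msmo1, or 10.7% of the 28 member entries, against 4.36% of all 32851 entries. The CCAAT box, the site of NF-Y, occurred in 75% of member entries against 37.4% of all, and GGGCGG, the site of Sp1, in 75% against 35.7%. CACGTG occurred in 14.3% against 7.15%. Of the sequences shown, Srebf2 and Hmgcs1 hold the sterol core, Insig1 the E-box, and Fads2 a single GC box. These letter matches describe the windows and do not show that a factor binds there.

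The second question was whether the pathway differed between mutant and control clones of the same state. No member was called among ciliated clones, nor any gene of the whole table at an adjusted p under 0.05 (edgeR), although 272 genes (1.94%) had an unadjusted p below that value. DESeq2 called 3 genes and voomLmFit 9, none of them members. Log2 fold changes of the members were small, from -0.63 to 0.22 with a median of -0.09, and 24 of 30 were negative. Over all 13994 genes the median was 0 and 6964 were negative. The member median and sign count leaned on conG7, the highest ciliated clone for 16 of 30 members (20.8% of all genes). For Hmgcs1, Lss and Insig1 the mutant means were 690, 173 and 405 CPM, below control means of 786, 177 and 410. Each lay above conD8, conH12 and conA4, with WDR343 the highest mutant. Srebf2, Tm7sf2 and Cyp51 stayed lower in mutants without conG7. No member had clone means that separated the 3 mutants from the 4 controls, where 2.14% of all genes did.

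Srebf2 had the smallest unadjusted p, 0.0636 (edgeR adjusted p = 1). Levels were 697 CPM in WDR341, 734 in WDR343 and 558 in WDR60, against 692 to 927 CPM in the controls. WDR60 alone lay below the lowest control, conH12, and the log2 fold change was -0.30 (SE 0.15), or -0.23 without conG7. Tm7sf2, a sterol delta-14 reductase, was at 13.9 CPM in WDR341, 25.2 in WDR343 and 15.8 in WDR60. Its controls ran from 18.8 in conH12 to 38 in conG7, and the log2 fold change was -0.51 (SE 0.32), or -0.23 without conG7. Vps51 overlaps it on the genome.

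Among ciliated clones Cyp51 turned on 1 control clone. It was at 254 CPM in WDR341, 704 in WDR343 and 318 in WDR60, and at 380 in conD8, 1370 in conH12, 367 in conA4 and 526 in conG7. conH12 stood alone, with an SD of 94.1 CPM over its 4 libraries. The log2 fold change of -0.63 (SE 0.49, edgeR adjusted p = 1) became 0.01 without conH12, -1.20 without WDR343 and -0.72 without conG7. Akap9 overlaps Cyp51 on the genome.

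Non-ciliated mutants gave the same count. None of the 30 members was called against the 4 non-ciliated controls, nor was any gene by edgeR (516 genes, 3.69%, had an unadjusted p under 0.05), while DESeq2 called 14 genes and voomLmFit 7, again no member. Member log2 fold changes ran from -0.69 to 0.38, with a median of -0.11 and 22 of 30 negative. Over all 13994 genes the median was 0 and 6923 were negative. Clone means of 4 members, Lss, Tm7sf2, Acss2 and Fads2, were lower in both mutants than in every control, where 6.25% of all genes were so separated.

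Fads2 was at 380 CPM in BE_W34 and 393 in BE_W60, just below the lowest control, AB_Co. The log2 fold change was -0.36 (SE 0.19, edgeR unadjusted p = 0.0797, adjusted p = 1), and -0.40 without BE_Co2. Fads1 was at 411 and 388 CPM, against 405 in AB_Co, 461 in BE_Co1, 545 in BE_Co2 and 592 in BE_Co3, a log2 fold change of -0.32 (SE 0.20), or -0.28 without BE_Co2. For Tm7sf2 the mutants were at 15.1 and 20 CPM and the controls between 20.6 in BE_Co1 and 38.9 in BE_Co3, with a log2 fold change of -0.69 (SE 0.37), or -0.63 without BE_Co2. The libraries of BE_W60 spread more than those of BE_W34 for Fads2, with SDs of 68.7 and 19.3 CPM.

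When each mutant clone was set against the 4 controls of its state, no member was called in any of the 5 tests (edgeR, 14567 genes tested), although the signs leaned strongly in 3 clones. The whole table gave 0 calls in 4 of these tests and 1 call (0.00686%), a lower gene, for WDR343. At an unadjusted p under 0.05 the edgeR counts over all genes were 303 (2.08%) for BE_W34, 417 (2.86%) for BE_W60, 151 (1.04%) for WDR341, 989 (6.79%) for WDR343 and 348 (2.39%) for WDR60. The members among them were 1 for BE_W34, 2 for WDR341, 1 for WDR60 and 0 for the other 2 clones. DESeq2 called 10 to 69 genes in these tests, with Scd1 in WDR341 the only member (0.0732% of all genes called for that clone). A fit of the libraries by voomLmFit, with the clone as a block, called 6 to 467 genes, of which the members were Scd1 in BE_W34 and WDR341, lower in both, and Lss, Insig1, Scd1 and Acss2, all higher, in WDR343. This fit called 0.0463% of all genes for BE_W34, 0.139% for WDR341 and 3.61% for WDR343. Against all 4 ciliated controls, 29 of 30 members were negative in WDR341 (median log2 fold change -0.46) and 29 of 30 in WDR60 (median -0.55), whereas 24 of 30 were positive in WDR343 (median 0.45). Over all 14567 genes the medians were -0.04, -0.03 and -0.03. Of these genes 8245 were negative in WDR341, 7869 were negative in WDR60 and 6823 were positive in WDR343. Members of 1 pathway in 1 clone are not independent observations. The control mean in these tests includes conG7. Set against the median of conD8, conH12 and conA4 alone, WDR341 had a median of -0.23 with 8 of 30 members above, and WDR60 a median of -0.22 with 6 of 30 above. The control conD8, set against the median of conH12 and conA4, had a median of -0.15 with 7 of 30 above. A lean of this kind thus also occurred in a control. Over all genes 49.1% were above in WDR341, 50.9% in WDR60 and 49.3% in conD8.

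Scd1 gave the largest single-clone values. Its product makes oleic and palmitoleic acid. It was at 9.42 ± 0.672 CPM (SD, n = 4 libraries) in WDR341, against 59.1 in conD8, 63.5 in conH12, 58.2 in conA4 and 209 in conG7, and at 199 in WDR343 and 87.9 in WDR60. Only WDR341 lay below the controls. Its log2 fold change was -3.34 (SE 0.89, edgeR unadjusted p = 0.00501, adjusted p = 1), and DESeq2 on the same clone sums gave -3.35 with an adjusted p of 0.0114. The control mean is raised by conG7, and without that clone the edgeR value was -2.66 (adjusted p = 1). In the non-ciliated state BE_W34 was the low clone, at 24.1 ± 0.98 CPM, whereas BE_W60 was at 196 and the controls at 159 in AB_Co, 83.2 in BE_Co1, 114 in BE_Co2 and 90.6 in BE_Co3. The BE_W34 log2 fold change was -2.21 (SE 0.82, unadjusted p = 0.0262, adjusted p = 1). The low clones in both states carry Wdr34 mutations, but WDR343, the other Wdr34 clone, was among the highest, and the labels do not say whether WDR341 and BE_W34 derive from the same cell. Scd2 was at 2240 CPM in WDR341, the lowest ciliated clone, and at 2150 in BE_W34, where of the non-ciliated clones BE_Co1 was lower at 2040.

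The other members with the lowest p in each clone lay closer to the controls than Scd1. Cyp51 in WDR341 was at -1.36 (SE 0.76, edgeR adjusted p = 1), and -0.72 without conH12. Insig1 in WDR341 had a log2 fold change of -0.97 (SE 0.42, edgeR unadjusted p = 0.0458, adjusted p = 1) and Srebf2 in WDR60 of -0.55 (SE 0.23, unadjusted p = 0.0415, adjusted p = 1). In WDR343 the smallest p belonged to Insig1 (0.75, SE 0.37), Acss2 (1.10, SE 0.55) and Mvk (0.94, SE 0.52), all with adjusted p from 0.779 to 0.83. Msmo1, the C4-methyl sterol oxidase, was at -0.88 (SE 0.46) in WDR60, and Srebf1 at -0.62 (SE 0.34). In BE_W34, Hmgcs1 was at -0.73 (SE 0.51), with 280 CPM against 398 to 533 CPM in the controls, and Tm7sf2 at -0.91 (SE 0.50). In BE_W60, Srebf1 was at -0.51 (SE 0.34), Fads1 at -0.37 (SE 0.30) and Fads2 at -0.34 (SE 0.28). Without conG7 the values were -0.68 for Insig1 in WDR341, -0.49 for Srebf2 and -0.56 for Msmo1 in WDR60, and 1.03 for Insig1, 1.52 for Acss2 and 1.42 for Mvk in WDR343, with adjusted p of 0.238, 0.25 and 0.159 for the last 3. Without BE_Co2, Hmgcs1 in BE_W34 was at -0.80 and Srebf1 in BE_W60 at -0.34.

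**Figure D4:**
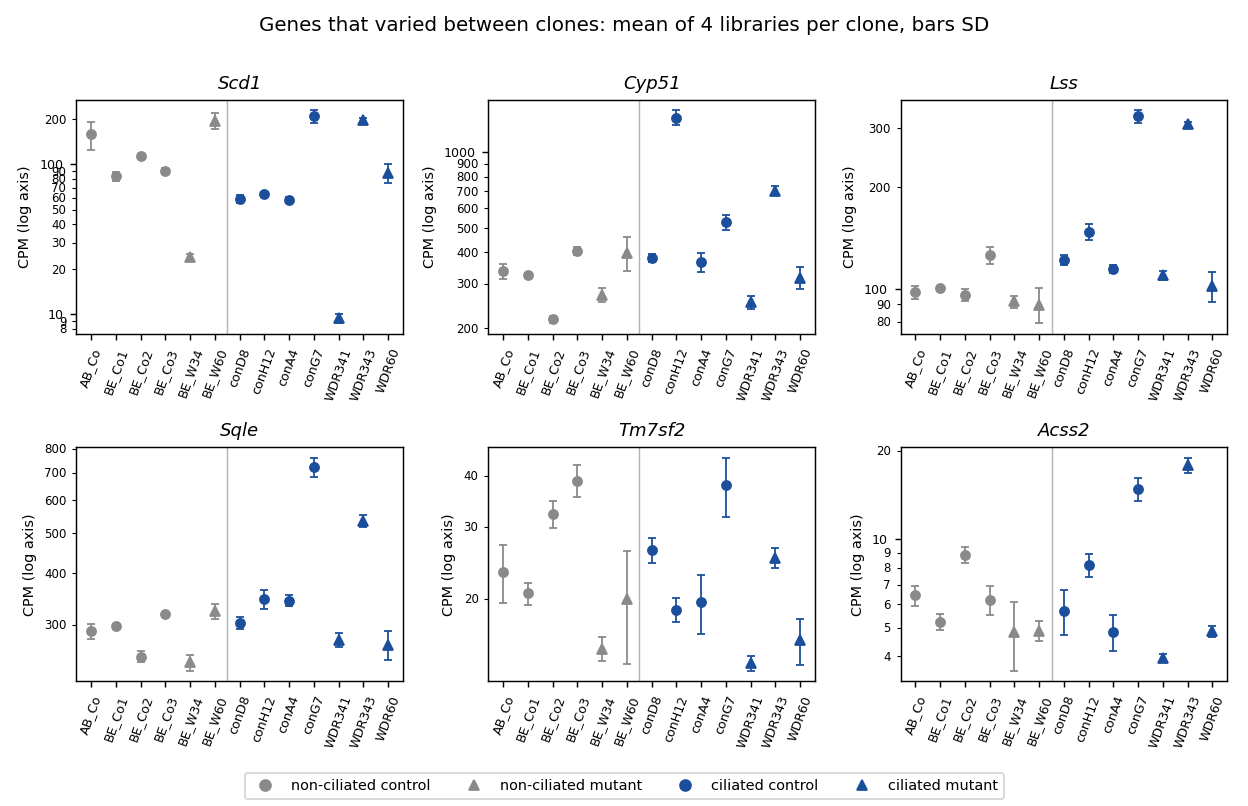
Mean CPM of 4 libraries with SD (bars) on a log axis for 6 genes that varied between clones of 1 group, in all 13 clones. Circles are controls, triangles mutants, grey non-ciliated and blue ciliated. Scd1 is lowest in WDR341 and BE_W34, Cyp51 is highest in conH12, and Lss, Sqle and Acss2 are highest in conG7 and WDR343.

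The spread between control clones of a state was described by the SD of log2 CPM. Its median over the members was 0.48 between the ciliated control clones and 0.28 between the non-ciliated ones, and 0.09 and 0.08 between technical libraries of a clone. Over genes above 1 CPM in all 4 clones the between-clone medians were 0.29 (10805 genes) and 0.24 (10816 genes). Without conG7 the ciliated value of the members fell to 0.20, and without BE_Co2 the non-ciliated one was 0.23. The values over all genes include every control clone, so they do not serve as a background for these. Scd1, Cyp51, Mvk and Dhcr7 had the largest spread between ciliated controls, with the highest clone from 2.98 to 3.73 times the lowest. Among non-ciliated controls Hsd17b7, Pmvk, Fdps and Fdft1 spread most. Hsd17b7 was at 26.9 CPM in BE_Co2 and at 49.4 in AB_Co, 78.3 in BE_Co1 and 77.4 in BE_Co3. Its SD of log2 CPM was 0.73 over the 4 clones and 0.38 without BE_Co2. For Scd1 in ciliated controls the SD was 0.90, and 0.07 without conG7, whereas for Cyp51 it was 0.89 and 1.08. For Mvk it was 0.75 and 0.38 and for Dhcr7 0.72 and 0.21. In non-ciliated controls the SD with and without BE_Co2 was 0.55 and 0.67 for Pmvk, 0.47 and 0.43 for Fdps, and 0.46 and 0.25 for Fdft1.

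conG7 and WDR343, a control and a mutant, shared high levels of most members. They were the highest pair of the 7 ciliated clones for 21 of 30 members, where the same pair was highest for 15.2% of all genes. The pair was picked after its values were seen, so these counts are a description. By role it led for 5 of 6 mevalonate genes, 7 of 11 genes from squalene to cholesterol, 2 of 4 regulators and 7 of 9 fatty acid genes. Against the median of conD8, conH12 and conA4, the median member was 1.71 times higher in conG7, with 29 of 30 above, and 1.67 times higher in WDR343, with 28 of 30 above. Over all genes these ratios were 0.988 and 0.993, with 48.8% and 49.2% of genes above.

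Hmgcs1 illustrates the pair. It was at 1380 CPM in conG7 and 1110 in WDR343, against 483 in conD8, 643 in conH12, 638 in conA4, 475 in WDR341 and 486 in WDR60. Lss was at 325 CPM in conG7 and 308 in WDR343, with the other 5 clones between 102 and 148. Sqle was at 723 and 535 CPM, with the others between 268 and 346. In each case both clones lay clear of the other ciliated clones. The pair did not lead for the other 9 members, Pmvk, Cyp51, Tm7sf2, Hsd17b7, Ebp, Srebf1, Srebf2, Fads1 and Fads2. Hsd17b7 was at 112 CPM in WDR343, the highest ciliated clone, but at 49.5 in conG7, the lowest ciliated control. Ebp, the delta-8 sterol isomerase, was at 29.4 CPM in conG7 and 25.1 in WDR343, inside the range of 22.9 to 38.2. Fads2 was highest in conD8.

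**Figure D5:**
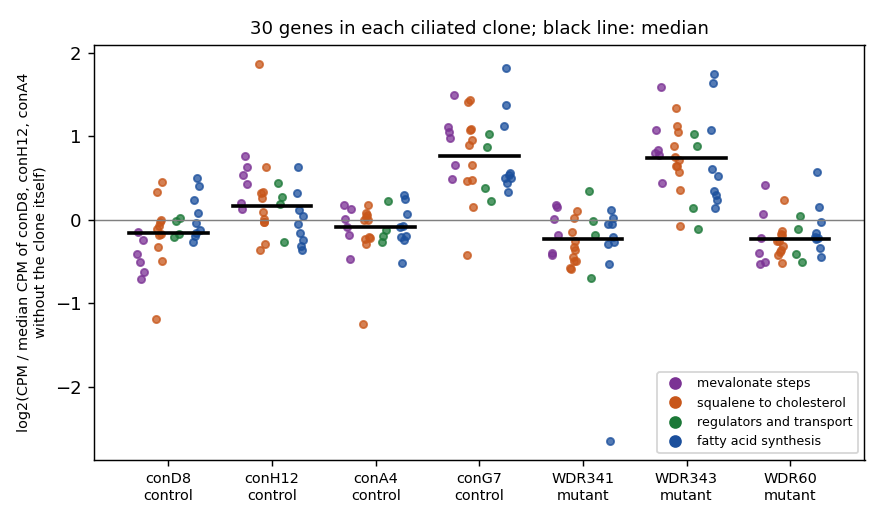
Log2 ratio of each gene (points, coloured by role) in each ciliated clone to the median CPM of the control clones conD8, conH12 and conA4, leaving out the clone itself where it is one of them. The black line is the median of the 30 genes. conG7 and WDR343 have medians of 0.77 and 0.74, and the other 5 clones lie between -0.23 and 0.16.

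Other features moved with these clones. Vim, the intermediate filament gene of mesenchymal cells, was at 148 CPM in conG7 and 197 in WDR343, against 3.48 to 31 in the other 5 ciliated clones. Vim was the only one of 9 mesenchymal or fibroblast markers above 1 CPM in all clones, and the summed level of the 9 was 4.86 to 239 CPM in ciliated and 55.2 to 668 CPM in non-ciliated clones. The highest clone was at 30.5 CPM for Dcn, 5.31 for Col1a1, 3.49 for Acta2 and 1.18 for Pdgfra, and at most at 0.417 CPM for Col1a2, Col3a1, Pdgfrb and Lum. Of the epithelial genes, Cdh16, the kidney-specific cadherin, was highest in the same pair, at 840 CPM in conG7 and 588 in WDR343, against 343 to 506. The keratin Krt8 was at 26.2 CPM in conG7 and 76.7 in WDR343, against 372 to 952. Epcam and Cdh1 in WDR343, at 287 and 301 CPM, were also the lowest of the ciliated clones after conG7. Lrp2, a proximal tubule endocytic receptor, was at 446 CPM in conG7 and 62.3 in WDR343, against 13.9 to 27.3 in the other ciliated clones. Among the 4 proximal tubule markers, Slc34a1 had 0 counts in every clone. Slc5a2 reached at most 0.0686 CPM in any clone, and Cubn ran from 2.2 to 23.4 CPM. The summed CPM of 12 proliferation genes was highest among ciliated clones in conG7 (4400, others 3380 to 3840), within the non-ciliated range of 3840 to 4680. Wdr34 itself was at 30.8 CPM in conG7 and 21.7 in WDR343, against 42.6 to 49.5 in the other ciliated clones and 22.2 to 32.4 in the non-ciliated ones.

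BE_Co2 shared several of these features with conG7. Beside low Epcam, Cdh1 and Krt7, it had Krt8 at 41 CPM against 580 to 768 in the other non-ciliated clones, Lrp2 at 272 CPM against 4.62 to 96.5, and Vim at 658 CPM against 50 to 418. It was also the highest of the non-ciliated clones for Cdh16, at 266 CPM against 155 to 247. Among the members, BE_Co2 was the lowest of the non-ciliated clones for 11 of 30, where 28.7% of all genes were lowest there. It was the highest for 3, Srebf1, Srebf2 and Acss2, where 24.7% of all genes were highest there. The part of these features in the lipid genes was not tested.

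Without conG7 and WDR343, an alternative chosen after seeing the data, 9 members were called between the states in controls, the same 4 regulators higher and 5 lower (19.6% of all genes called). The lower ones were Mvk (log2 fold change -0.89, SE 0.20, edgeR adjusted p = 0.0159), Acaca (-0.85), Elovl6 (-0.71), Fads2 (-0.66) and Dhcr7 (-0.46, adjusted p = 0.0443), the last enzyme of the pathway. The clones left out were the highest ciliated pair for Mvk, Acaca, Elovl6 and Dhcr7, so their removal itself lowers the ciliated means. The p-values do not allow for that choice, and the added calls are a description. In mutants 6 were called, Insig1, Srebf1 and Stard4 higher and Mvk, Acaca and Elovl6 lower (13.3% of all genes). Hmgcs1 was then at 0.31 (SE 0.19, adjusted p = 0.274) in controls.

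Neighbouring parts of lipid metabolism gave mixed counts between the control states, where 8.98% of all genes were called higher and 9.46% lower. In SREBP processing, 2 of 7 genes were called higher, among them the membrane protein Erlin2 (log2 fold change 0.48, SE 0.13), while the escort Scap was at -0.26 (SE 0.13) and not called. Of 6 tested genes of sterol efflux and the LXR sterol receptors, 3 were higher, Mylip (2.75, SE 0.66), Nr1h2 (0.95, SE 0.15) and Npc2 (0.58, SE 0.16). Of 9 genes of the isoprenoid branch, which draws on the same farnesyl units, 2 were lower, the ubiquinone side-chain enzymes Pdss1 (-1.06, SE 0.18) and Pdss2 (-0.74, SE 0.14). Among 11 further fatty acid and glycerolipid genes, 3 were higher, Elovl7 (1.04, SE 0.24), Lpin1 (1.02, SE 0.32) and Acsl3 (0.65, SE 0.17).

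Between the control states, 2 of 13 fatty acid oxidation genes were called higher and 1 lower. Cpt1a, which admits fatty acids to mitochondria, was higher (1.34, SE 0.35), and Hadha was lower (-0.63, SE 0.15), with 10 of 13 not called. Of 12 proliferation genes, 5 were lower in ciliated controls, among them Aurka (-0.79, SE 0.12) and Plk1 (-0.66, SE 0.12), and none was higher. Between the mutant states 5.32% of all genes were called higher and 7.53% lower. There, 1 of 7 SREBP processing genes was higher, and of 6 sterol efflux genes 2 were higher and 1 lower. Lower calls were 3 of 9 isoprenoid and 3 of 12 proliferation genes. None of the 11 further fatty acid and glycerolipid genes or the 13 oxidation genes was called. No gene of these lists was called in a comparison of mutants with controls within a state or in the interaction.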

How the data were processed

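RNA was extracted from clones of Cilia-APEX-IMCD3 cells and sequenced after SMARTER library preparation, 4 technical replicate libraries per clone. The authors aligned reads to GRCm38/mm10 with Rsubread and deposited whole-number counts per gene symbol from featureCounts (R 3.4.4 and DESeq2 1.18.1 in the submitters' processing notes). How strand and multiply mapping reads were treated is not given in the sources used here.

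Counts of the 4 libraries were summed per clone, and all 13 sums were fitted together with 4 groups (state by genotype) by edgeR 4.0.16 (glmQLFit and glmQLFTest, TMM, filterByExpr, 13994 genes in R 4.3.3). Single mutant clones were fitted as groups of their own (14567 genes), in which a lone clone is assumed to vary like the others. A call is a Benjamini-Hochberg adjusted p under 0.05. The SE is the log2 fold change over the root of F. The clone is the sample here, since libraries of a clone are not independent. P-values measure the spread between clones. Displayed CPM use TMM factors over the 52 libraries, as clone means ± SD. Clone sums held 64841603 to 77304019 counts, and no 2 libraries held identical values.

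The members, gene lists and tests were chosen with earlier results of these data known. Named genes were all 30 members by role, with all clone values for up to 8 called members of the control state comparison, the called or the 3 lowest-p members of each mutant comparison, and the 4 most variable in each control group. Alternatives were other size factors, filters, tools, libraries as samples, and leaving out clones or replicates. The count test was also run on simulated counts with the same spread between clones for every gene and no outlying clone. That run does not measure its error rate in these data. Values of 2 genes of the neighbouring lists are not reported here. Promoters, gene positions and exon lengths came from RefSeq and GENCODE tables of GRCm38.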

Additional observations from a re-analysis of the deposited data

Results flagged for a closer look

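For 30 members in each state, 60 groups of 4 control clones were examined. In 9 groups a clone's distance from its nearest neighbour exceeded Dixon's 95% limit as a share of the range. The groups reuse the same 4 clones in each state over genes of 1 pathway, so they are not independent. The count is a description, and no rate over all genes is given. conG7 was the outlying clone in 7 of the 9, and over all genes it was the highest ciliated clone for 20.8% and the lowest for 24.4%. Its levels were 160 CPM for Idi1 (other ciliated controls 71.2 to 80.8), 723 for Sqle (303 to 346), 325 for Lss (115 to 148), 556 for Msmo1 (262 to 272), 116 for Sc5d (73.3 to 73.7), 129 for Dhcr7 (43.1 to 57.4) and 209 for Scd1 (58.2 to 63.5). conH12 stood apart for Cyp51, at 1370 CPM against 367 to 526. Among non-ciliated controls BE_Co3 stood apart for Lss, at 126 CPM against 95.9 to 101.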

How the results depend on the processing

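In the control state comparison the 6 members called were the same 6 with RLE size factors, with either other filter and with DESeq2. The count was 3 with a log2 fold change of at least 1 required. It was 17 with libraries as samples (61.9% of all genes called), 15 with the replicate block added (60.8%) and 12 with voomLmFit and the clone as a block (27%), 3 to 6 when 1 clone was left out (3 without BE_Co1, where Stard4, Acaca and Fads2 were lost) and 6 without any 1 replicate number. In mutants the count of 2 became 5 by DESeq2 (20.1% of all genes), 13 with libraries as samples (60.4%), 13 with the replicate block (59.5%), 6 by voomLmFit (21.7%), 0 to 4 without 1 clone (0 without BE_W34 or BE_W60, 4 without conG7), 6 without conG7 and WDR343 (13.3%), and 4 without conG7 and BE_Co2 (20.8%). Mutants against controls gave 0 in every setting but libraries as samples, without and with the replicate block, where 1 ciliated (6.57% and 5.19% of all genes) and 3 non-ciliated members (10.5% and 9.1%) were called in both. For single clones those fits called 5 and 5 members for BE_W34, 2 and 2 for BE_W60, 12 and 9 for WDR341, 15 and 15 for WDR343 and 16 and 15 for WDR60, with 4.29% to 27.2% of all genes called, since technical libraries then count as independent. By voomLmFit the counts were 1 for BE_W34, 1 for WDR341 and 4 for WDR343, and DESeq2 called 1 for WDR341. Cyp51 in ciliated mutants, at -0.63, ran from -1.2 (without WDR343) to 0.01 (without conH12) when 1 clone was left out. Members with separate control states numbered 7 (21.4% of all genes), and 11 without conG7 and WDR343 (30.1%) or 12 without conG7 and BE_Co2 (42.1%), where fewer clones are compared. The median between-clone SD of ciliated controls was 0.48, and 0.20 without conG7. These clone pairs, and conG7 or BE_Co2 for the spread, were left out after seeing the data. Replicate numbers did not clearly pair the libraries. Deviations of same-numbered libraries correlated with a median r of 0.0143 and a highest r of 0.69, and 29 of 144 pairs exceeded 0.1. For libraries with different numbers the median r was -0.00746 and the highest 0.788, and 72 of 432 pairs exceeded 0.1. Without TMM the median of all genes moved to 0.083 in controls and 0.179 in mutants, and the share of calls that were higher from 48.7% to 54.7% and from 41.4% to 56.2%. Every member had at least 56 counts in every library.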
